A study of Mus musculus with 8 samples.

Results

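The Il6 locus is described here by the ATAC-seq peaks within a window of 100 kb around Il6 on mouse chromosome 5, from 30270000 to 30370000 on build mm9. Every peak that overlapped this window was taken, and the rule places Il6 near 30340000 to 30347000, a position rounded to 1000 bp. The window held 4 peaks of the 74207 in the table. ATAC-seq measures open chromatin by the insertion of sequencing adapters by the Tn5 transposase. The cells were bone marrow-derived macrophages (BMDM), grown from marrow in CMG media with serum, of C57Bl/6 mice labelled WT (wild type). Macrophages of 2 mice were each divided over 4 groups, giving 8 libraries. The fenoterol + LPS group had 1 µM fenoterol, an agonist of the β2 adrenergic receptor, for 15 min and then 100 ng/mL LPS for 1 h. The LPS group had the same dose and time of LPS, a bacterial lipopolysaccharide, without fenoterol. The fenoterol group had 1 µM fenoterol for 15 min alone, and the unstimulated group had neither agent. Time since fenoterol therefore differed between the groups that had it. The table names no genes, so the labelled cell type was not checked against marker genes here.

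Il6 encodes interleukin-6, a cytokine that activated macrophages secrete and that drives the acute phase response of the liver and the differentiation of lymphocytes. LPS is sensed by Toll-like receptor 4, which activates NF-κB and AP-1, and C/EBP proteins also act at the Il6 promoter. The β2 adrenergic receptor raises cyclic AMP, which activates protein kinase A and the factor CREB, whose binding site is the cAMP response element. In the RefSeq annotation of GRCm38.p6, Il6 lies between the protein-coding genes Dnajb6, a chaperone, and Tyms, thymidylate synthase.

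The bases before the Il6 start are shown because a peak of the table lies next to the start as rounded in the rule. The letters of factors downstream of both agents can also be looked up in these bases. The 250 bases upstream of the RefSeq start, chr5:30012864-30013113 on the plus strand of GRCm38.p6, are given 5′ to 3′ with motif matches in capitals.

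Il6 promoter: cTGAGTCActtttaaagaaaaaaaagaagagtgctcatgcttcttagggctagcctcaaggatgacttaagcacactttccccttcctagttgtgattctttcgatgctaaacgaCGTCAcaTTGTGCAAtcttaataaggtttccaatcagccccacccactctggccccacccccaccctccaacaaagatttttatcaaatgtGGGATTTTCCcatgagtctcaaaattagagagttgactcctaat

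Motifs were searched on both strands, and positions are counted from the gene start, with -1 the base just before it. The NF-κB consensus matched once, at -44 to -35, and was held by 7.25% of the 32851 mouse promoters of the same length. The C/EBP letters TTGCNNAA matched once on the opposite strand, at -128 to -121 (9.56% of promoters). The core of the cAMP response element, TGACG, matched once on the opposite strand at -135 to -131 (17.8% of promoters), whereas the whole element TGACGTCA, which contains that core, had no match (1.55%). The AP-1 letters TGANTCA matched once at -249 to -243 (6.75%), and the TATA box letters TATAAA had no match (12.4%). None of the 4 matches overlapped another. The peaks are on mm9, so how much of this sequence lies within the peak at the Il6 start was not determined.

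The 4 peaks all lay upstream of the rounded Il6 start, and the window held no peak from there to its downstream end. The peak at the Il6 start spanned 30339282 to 30339999 on chromosome 5, was 717 bp long and ended 1 bp before the rounded start, so the true start may lie within it. A peak at 30320139 to 30320463, 324 bp long, ended 19.5 kb upstream. The other two lay close together at 30277352 to 30277665, 62.3 kb upstream, and at 30274613 to 30275185, 64.8 kb upstream. Downstream of the peak at the Il6 start the next peak of the table was 59.7 kb away, beyond the window, a gap reached by 9.54% of the gaps between neighbouring peaks, whose median was 10028 bp. Along the chromosomes, windows of 100 kb held a median of 1 peak, and 72.9% held 4 or fewer.

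**Figure D1:**
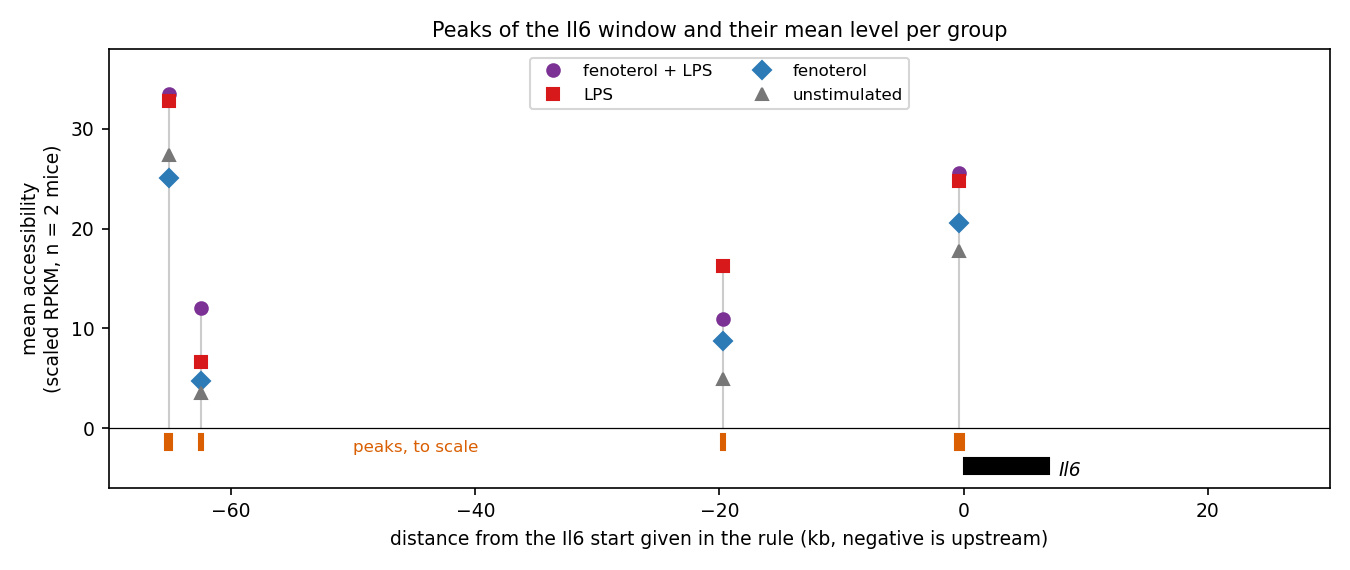
Mean accessibility per group (scaled RPKM, 2 mice each) of the 4 peaks of the window, plotted at their distance from the Il6 start in kb. The group means run from 25.04 to 33.5 RPKM at 64.8 kb, 3.54 to 12.04 RPKM at 62.3 kb, 4.90 to 16.3 RPKM at 19.5 kb and 17.7 to 25.6 RPKM at the start.

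Accessibility is given in RPKM, reads divided by peak length and by the library's reads in peaks, scaled by a size factor per library. Averaged over the 8 libraries, the peak 64.8 kb upstream stood at 29.7 RPKM and the peak at the Il6 start at 22.2 RPKM, above 76.7% and 64.2% of the table. The peak 19.5 kb upstream averaged 10.2 RPKM, at the 13.3 percentile, and the peak 62.3 kb upstream 6.74 RPKM, at the 1.14 percentile. The last fell under the filter of 9.62 RPKM that left out the lowest 10% of peaks, so 3 of the 4 peaks were tested. Libraries held 3164446 to 4040292 reads in peaks, except the unstimulated library of mouse 1, which held 1426873. The highest level over the lowest among the 8 libraries was 7.36 at the peak 62.3 kb upstream, where libraries held 2 to 21 reads, and 3.98 at the peak 19.5 kb upstream, which also had 2 to 21 reads. It was 1.52 at the Il6 start and 1.66 at the peak 64.8 kb upstream.

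Of the 3 tested members, 1 passed the threshold for LPS against unstimulated cells, the peak 19.5 kb upstream; whether the members differ in their LPS response was not tested. It stood at 18.3 and 14.2 RPKM in the LPS libraries of mouse 1 and mouse 2, against 4.61 and 5.19 RPKM in the unstimulated libraries. The LPS values lay above the unstimulated ones in both mice, with no overlap of the groups, as at 23.5% of tested peaks. The means were 16.3 ± 2.92 RPKM with LPS and 4.90 ± 0.413 RPKM unstimulated (SD, n = 2), a ratio of 3.32. On the log2 scale of RPKM + 4, which understates the ratio, the difference was 1.18 (SE 0.33; limma-trend, adjusted p = 0.0254). That difference was 1.38 in mouse 1 and 0.99 in mouse 2, and above that of 97.3% of tested peaks. The peak passed the filter of 9.62 RPKM only through the LPS group, as the other 3 groups averaged 8.18 RPKM; without any filter the adjusted p was 0.0256. The reads behind these levels were few. The LPS libraries held 21 and 17 reads at this peak, and the unstimulated libraries 2 and 7, of which the count of 2 has an exact 95% Poisson interval of 0.242 to 7.23 reads. Leaving out the LPS library of mouse 2 (adjusted p = 0.111) or the shallow unstimulated library of mouse 1 (adjusted p = 0.0686) ended the call, and leaving out the LPS library of mouse 1 brought the peak under the filter. It was also lost with quantile normalization (adjusted p = 0.07) and with the 4 libraries of these groups alone (adjusted p = 0.0544). As the assay sums over all cells of a library, more cells open at a site and more insertion per open cell cannot be told apart.

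At the Il6 start the values with LPS were 26.8 and 22.7 RPKM, against 17.7 and 17.8 RPKM in unstimulated cells. Both LPS values were again above both unstimulated ones, as at 23.5% of tested peaks, but by a smaller margin. The means were 24.8 ± 2.94 and 17.7 ± 0.0468 RPKM (SD, n = 2), a ratio of 1.40. The log2 difference was 0.40, with a 95% interval of 0.02 to 0.78, and did not pass the threshold over all tested peaks (adjusted p = 0.181; 0.105 by voom on reads). This peak rested on 60 to 68 reads with LPS and on 17 and 53 reads in unstimulated cells.

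The peak 64.8 kb upstream stood at 28.7 and 36.9 RPKM with LPS and at 32.6 and 22.3 RPKM in unstimulated cells. The groups overlapped, and the mice moved in opposite ways, by -0.16 and 0.64 on the log2 scale. Its log2 difference was 0.24 (95% interval -0.13 to 0.61, adjusted p = 0.446). The peak 62.3 kb upstream had 7.23 and 6.06 RPKM with LPS, against 4.77 and 2.30 RPKM in unstimulated cells. These levels stand for 7 or 8 reads with LPS and 2 or 3 without, and in a fit without the filter the log2 difference was 0.52 (95% interval -0.36 to 1.39, adjusted p = 0.498).

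For LPS against unstimulated cells, 1 of the 3 tested members therefore passed, where 10.1% of the 66786 tested peaks passed in either direction and 6.53% were higher. Leaving out 1 LPS library brought the share of 10.1% to 3.11% (mouse 2) or 4.09% (mouse 1). It was 19.1% when the unstimulated library of mouse 2 was omitted. By voom 1 passed, the same peak (adjusted p = 0.0125), where 11.6% of all tested peaks did. All 3 had a positive log2 difference, with a median of 0.40 beside -0.03 over all tested peaks. The unadjusted p of limma-trend was under 0.05 at 2 of the 3, beside 24.1% of all tested peaks. A single call among 3 members is no measure of the locus as a whole.

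**Figure D2:**
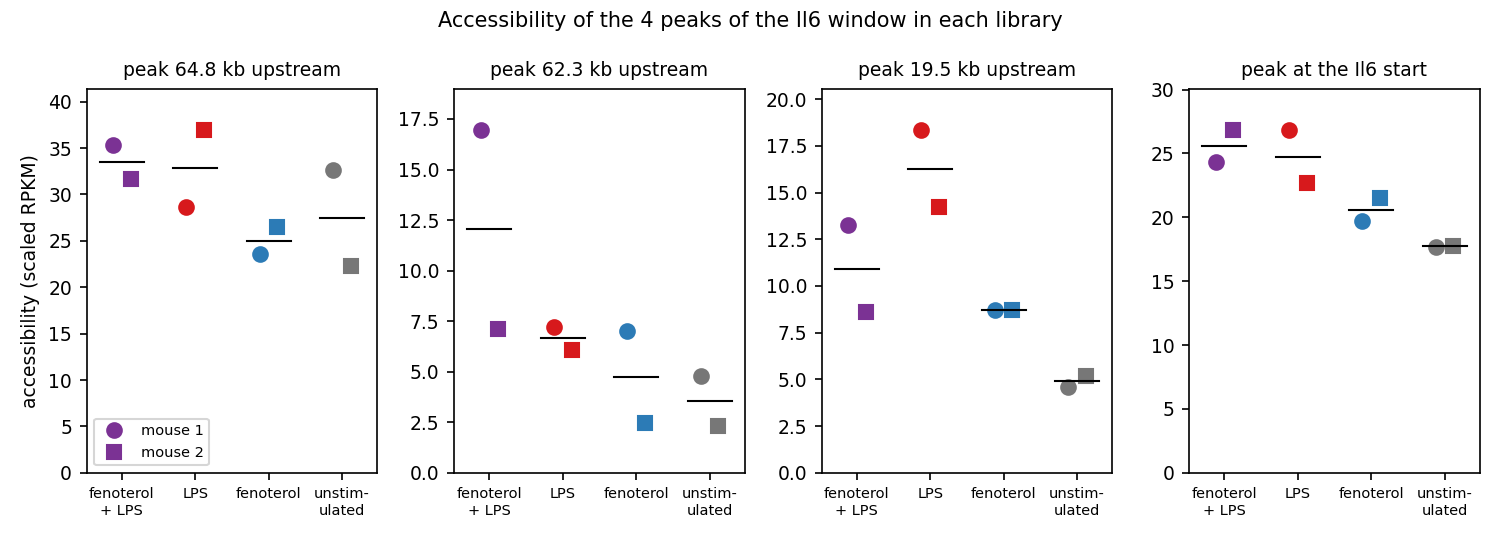
Accessibility (scaled RPKM, each axis from 0) of the 4 peaks in each library, by group; circles are mouse 1, squares mouse 2 and lines the mean of both. At the peak 19.5 kb upstream the LPS values of 18.3 and 14.2 RPKM are the highest, and at the Il6 start the 4 libraries with LPS lie between 22.7 and 26.8 RPKM.

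With fenoterol present, no tested member passed the threshold for LPS. The fenoterol + LPS group also had a longer time since fenoterol. LPS and that time cannot be told apart in this comparison. The peak 19.5 kb upstream stood at 13.3 and 8.60 RPKM with fenoterol + LPS, against 8.71 and 8.72 RPKM with fenoterol. Mouse 1 was higher with LPS, whereas the 2 values of mouse 2 were nearly equal. The log2 difference was 0.21 (95% interval -0.47 to 0.90, adjusted p = 0.747). The reads were 17 and 10 with fenoterol + LPS and 9 and 11 with fenoterol.

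At the Il6 start the values were 24.3 and 26.8 RPKM with fenoterol + LPS and 19.7 and 21.5 RPKM with fenoterol. Both values with both agents were above both with fenoterol, as at 27.1% of tested peaks. The log2 difference of 0.27 did not pass (95% interval -0.11 to 0.65, adjusted p = 0.391). At the peak 64.8 kb upstream the values were 35.3 and 31.7 RPKM with fenoterol + LPS, against 23.6 and 26.5 RPKM with fenoterol. These groups did not overlap, as at 27.1% of tested peaks, and the log2 difference was 0.37 (95% interval 0.00205 to 0.74, adjusted p = 0.188). The peak 62.3 kb upstream had its highest level here, 17.0 RPKM in the fenoterol + LPS library of mouse 1, with 7.12 RPKM in that of mouse 2, against 7.02 and 2.46 RPKM with fenoterol. Its log2 difference without the filter was 0.86 (limma-trend, 95% interval -0.02 to 1.73, adjusted p = 0.193). By voom without the filter the adjusted p was 0.0445, in a fit where 20.4% of all peaks passed. In this comparison 0 of the 3 tested members passed by limma-trend and 0 by voom, where 13.7% of all tested peaks passed by limma-trend and 19.2% by voom. An unadjusted p under 0.05 was found at 1 of the 3, beside 26.2% of all tested peaks. The share of 13.7% was 5.76% to 6.06% without the fenoterol library of mouse 1 or either fenoterol + LPS library.

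Fenoterol alone for 15 min changed no tested member past the threshold. At the peak 19.5 kb upstream the levels were 8.71 and 8.72 RPKM with fenoterol and 4.61 and 5.19 RPKM in unstimulated cells. Both fenoterol values were above both unstimulated ones, as at 15.1% of tested peaks, with a ratio of means of 1.78. The log2 difference was 0.52 (95% interval -0.17 to 1.20, adjusted p = 0.767), 0.56 in mouse 1 and 0.47 in mouse 2. The unstimulated libraries here are the ones that also serve as control for LPS, including the library with 2 reads at this peak. At the Il6 start the values of 19.7 and 21.5 RPKM with fenoterol were likewise above the 17.7 and 17.8 RPKM of unstimulated cells (log2 difference 0.18, 95% interval -0.20 to 0.56, adjusted p = 0.857). The peak 64.8 kb upstream had a log2 difference of -0.10 (95% interval -0.46 to 0.27), and the peak 62.3 kb upstream, in the fit without the filter, of 0.18 (95% interval -0.69 to 1.05). By limma-trend and by voom 0 of the 3 tested members passed, where 0.00749% of all tested peaks passed by limma-trend and 0.0479% by voom. An unadjusted p under 0.05 was found at 0 of the 3, beside 7.43% of all tested peaks. Without the unstimulated library of mouse 2, 5.38% of all tested peaks passed by limma-trend but 0 members did.

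The study asks how β2 adrenergic signalling alters the response of macrophages to LPS, which at this locus is the comparison of fenoterol + LPS with LPS. Levels at the peak 19.5 kb upstream were lower with both agents, at 13.3 and 8.60 RPKM, against 18.3 and 14.2 RPKM with LPS. No value with both agents reached the lower LPS value, a separation in this direction seen at 20.9% of tested peaks. As the peak passed the filter only through the LPS group, this separation is not independent of the filter. The ratio of means was 0.672, and the log2 difference -0.45 (95% interval -1.14 to 0.23; -0.37 in mouse 1 and -0.53 in mouse 2) did not pass (adjusted p = 0.906; 0.659 by voom). The interval spans both directions, and the reads were 17 and 10 with fenoterol + LPS and 21 and 17 with LPS.

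At the Il6 start the groups overlapped, at 24.3 and 26.8 RPKM with fenoterol + LPS and 26.8 and 22.7 RPKM with LPS. The log2 difference of 0.04 had a 95% interval of -0.34 to 0.42 (adjusted p = 0.99). The peak 64.8 kb upstream also overlapped, with 35.3 and 31.7 RPKM against 28.7 and 36.9 RPKM and a log2 difference of 0.03 (95% interval -0.33 to 0.40). At the peak 62.3 kb upstream the values were 17.0 and 7.12 RPKM with fenoterol + LPS and 7.23 and 6.06 RPKM with LPS (log2 difference 0.52 without the filter, adjusted p = 0.888). The higher mean there came from mouse 1, with 21 reads against 8, while mouse 2 had 8 reads against 7. No tested member passed by limma-trend or by voom, and 0 had an unadjusted p under 0.05. Of all tested peaks, 0% passed this comparison by limma-trend, 6.66% had an unadjusted p under 0.05, and 0.662% passed by voom.

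**Figure D3:**
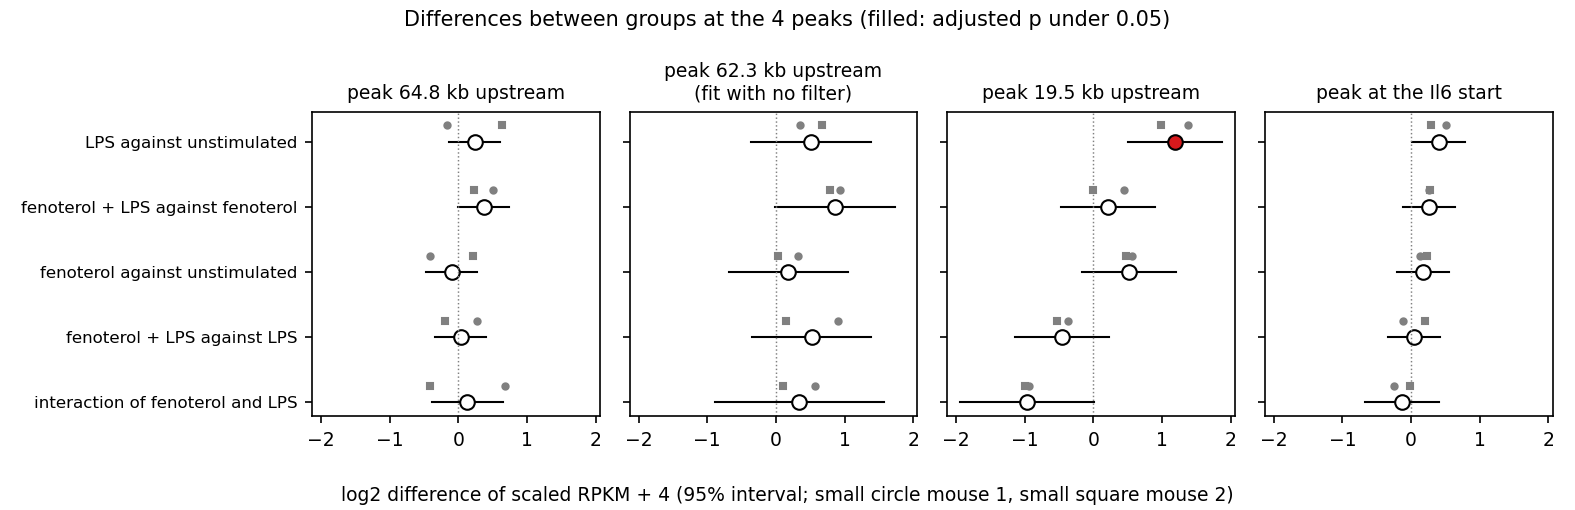
Log2 differences of scaled RPKM + 4 for 5 comparisons (rows) at the 4 peaks (panels), with 95% intervals from limma-trend; small grey circles and squares are mouse 1 and mouse 2, and a filled point passed the threshold. The filled point is LPS against unstimulated at the peak 19.5 kb upstream, at 1.18.

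Whether fenoterol changed the LPS response was tested by the interaction, the LPS difference with fenoterol minus the LPS difference without. The LPS difference with fenoterol also holds a longer time since fenoterol, so the interaction cannot tell that time from a changed LPS response. At the peak 19.5 kb upstream the interaction was -0.97 (95% interval -1.94 to 0.00134), negative in both mice and lower than at all but 1.22% of tested peaks. That peak passed the filter only through the LPS group, which is subtracted here, so the rank is not independent of the filter. The interaction did not pass over all tested peaks (limma-trend, unadjusted p = 0.0503, adjusted p = 0.791, and 0.739 by voom). The LPS call made without fenoterol and missed with fenoterol is therefore not shown to differ between these states. At the Il6 start the interaction was -0.13 (95% interval -0.67 to 0.40), and at the peak 64.8 kb upstream 0.13 (95% interval -0.39 to 0.65). The peak 62.3 kb upstream had 0.34 without the filter (95% interval -0.89 to 1.57). By limma-trend and by voom 0 of the 3 tested members passed, beside 0% of all tested peaks by limma-trend and 0.00599% by voom. An unadjusted p under 0.05 was found at 0 of the 3 and at 6.33% of all tested peaks.

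**Figure D4:**
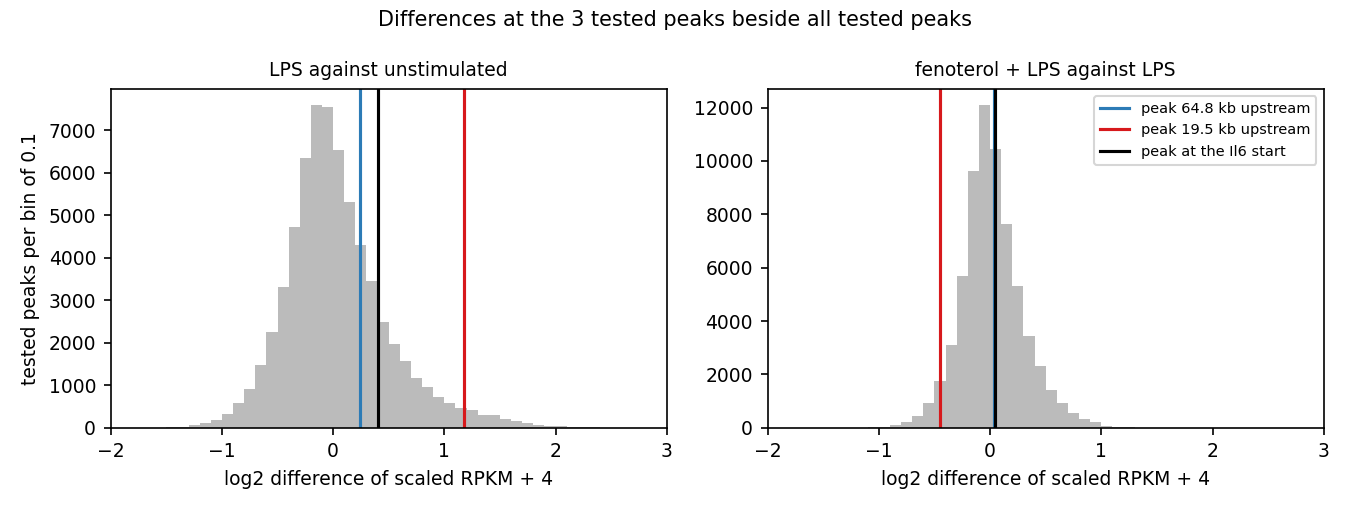
Number of the 66786 tested peaks in bins of the log2 difference of scaled RPKM + 4 (grey), for LPS against unstimulated and fenoterol + LPS against LPS, with the 3 tested members as lines. The peak 19.5 kb upstream lies at 1.18 in the upper tail of the first and at -0.45 in the lower tail of the second. It held 2 to 21 reads per library and passed the filter only through the LPS group, so these places are not independent of the filter. The other 2 lie near the middle of the second.

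Averaged over both fenoterol states, a comparison added after the data were seen, LPS gave positive log2 differences at all 3 tested members. This comparison and the fenoterol average below again mix different times since fenoterol. For LPS 1 member passed, where 23.4% of all tested peaks passed in either direction and 13.3% were higher. The peak 19.5 kb upstream rose by 0.70 (SE 0.23, limma-trend adjusted p = 0.034), an average of 1.18 without fenoterol and 0.21 with it. That peak passed the filter only through the LPS group, so its call is not independent of the filter. Without any filter the peak had an adjusted p of 0.0328 by limma-trend. Its call was lost without the fenoterol + LPS library of mouse 1 (adjusted p = 0.173), the LPS library of mouse 2 (0.0709), the fenoterol library of mouse 1 (0.0811) or that of mouse 2 (0.0708), and with quantile normalization (0.112), and without the LPS library of mouse 1 the peak fell under the filter. At the Il6 start the difference was 0.33 (95% interval 0.06 to 0.60, adjusted p = 0.0672; 0.0147 by voom), and the 4 libraries with LPS, at 22.7 to 26.8 RPKM, all lay above the 4 without, at 17.7 to 21.5 RPKM, as at 12.3% of tested peaks. The peak 64.8 kb upstream had 0.30 (95% interval 0.04 to 0.56, adjusted p = 0.085; 0.00703 by voom, and 0.0141 by limma-trend without the unstimulated library of mouse 1). By voom 3 of 3 passed, where 26.7% of all tested peaks did. The unadjusted p of limma-trend was under 0.05 at 3 of the 3, beside 34.9% of all tested peaks. For fenoterol averaged over both LPS states the 3 differences lay between -0.03 and 0.11, and 0 passed by limma-trend or by voom, where 0% of all tested peaks passed by limma-trend and 0.121% by voom. An unadjusted p under 0.05 was found at 0 of the 3, beside 7.70% of all tested peaks.

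Summed over the 4 peaks and scaled to reads in peaks (CPM), the reads came to 47.7 and 43.0 CPM with fenoterol + LPS, 44.0 and 44.5 CPM with LPS, 32.9 and 35.4 CPM with fenoterol, and 32.2 and 28.7 CPM in unstimulated cells. The 4 libraries with LPS were all above the 4 without, as at 12.3% of single tested peaks. The share of other windows whose sums separate in this way was not counted. Most of these reads lay in the peak 64.8 kb upstream and the peak at the Il6 start. Neither of those passed for LPS against unstimulated cells. Relative to the peak at the Il6 start, the level per length of the peak 19.5 kb upstream was 54.5% and 32.1% with fenoterol + LPS, 68.3% and 62.7% with LPS, 44.3% and 40.6% with fenoterol, and 26.0% and 29.2% in unstimulated cells. Both values with LPS alone were thus above the other 6. The peak 19.5 kb upstream held only 2 to 21 reads per library and passed the filter only through the LPS group. How often other pairs of peaks are ordered in this way was not counted.

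Across the 8 libraries the log2 levels of the peak 19.5 kb upstream and of the peak at the Il6 start had a Pearson r of 0.794, and the other 5 pairs of members had an r of 0.409 to 0.575. These are descriptions over libraries that share depth and group. Among the 66783 tested peaks outside the window, the pattern most like that of the peak at the Il6 start was at 28329647 to 28330081 on chromosome 17 (r = 0.992 over 8 libraries). The next 4 were at 122384068 to 122384428 on chromosome 2 (0.988), 95445187 to 95445622 on chromosome 4 (0.984), 137023739 to 137024051 on chromosome X (0.984) and 128189875 to 128190331 on chromosome 2 (0.982).

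The nearest peak outside the window upstream, at 30218977 to 30219215, had 15.9 and 14.1 RPKM with fenoterol + LPS, 8.32 and 15.9 with LPS, 11.9 and 17.3 with fenoterol, and 9.41 and 12.1 in unstimulated cells. The nearest downstream, at 30399747 to 30400366, had 6.53 and 6.30 RPKM with fenoterol + LPS, 6.40 and 5.25 with LPS, 14.2 and 11.2 with fenoterol, and 14.5 and 11.6 in unstimulated cells. At the upstream neighbour the LPS and unstimulated values overlapped (log2 difference 0.09, limma-trend adjusted p = 0.891). Both fenoterol + LPS values there lay above both unstimulated ones, and the share of peaks with that separation was not counted. The downstream neighbour had lower values with LPS but fell under the filter and was not tested. The share of all peaks lower with LPS in this way was not counted.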

How the data were processed

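The deposited table holds RPKM values for 74207 peaks of 1 peak set in 8 ATAC-seq libraries. The authors used cutadapt, Bowtie2, MACS2 and HOMER with build mm9, per the submitters' processing notes. Versions, the handling of duplicates, a Tn5 shift and any pooling before peaks were called are not named in the sources used here. Value times length gave whole multiples of 1 step per library (100%, within 0.01 read), so reads per peak were recovered; no value of the table lay under 1 read, so 1 read may stand for none, and no member was at 1 read.

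Each library was scaled by its size factor (median of ratios, 0.94 to 1.04), a pseudocount of 4 RPKM was added and values were put on the log2 scale. After the lowest 10% of peaks by mean were dropped, 66786 were tested with limma 3.58.1 (limma-trend) in R 4.3.3, as 4 group means over 8 libraries, with Benjamini-Hochberg adjustment over all tested peaks and a threshold of 0.05. The spread had 4 residual degrees of freedom and 16.4 from the table, so p-values rest on 2 animals a group and a spread shared over peaks. Voom on recovered reads was an alternative.

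Mouse numbers mark the same animal per the labels, so they pair the libraries. Differences between the mice correlated at 0.0223 to 0.0713 across groups. Libraries of the 2 mice of a group correlated at 0.863 to 0.905 and were counted separately. Intervals on reads cover counting error only.

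Peaks given with all values were the one nearest the Il6 start, those past the threshold and the 3 with the largest difference of fenoterol + LPS against LPS, which are 3 of the 4 members; the peak 64.8 kb upstream falls outside that rule and was named after its values were seen. The members, comparisons and motifs were chosen with earlier results of these data known. The promoter is from RefSeq (GRCm38.p6; Il6 matched 1 entry).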

Additional observations from a re-analysis of the deposited data

Results flagged for a closer look

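At the peak 19.5 kb upstream of Il6 the fenoterol difference had opposite signs in the 2 LPS states in both mice. With LPS it was -0.37 and -0.53 on the log2 scale, and without LPS 0.56 and 0.47. The interaction of -0.97 did not pass the threshold (limma-trend, adjusted p = 0.791). Among the 66786 tested peaks 6.13% showed these signs in both mice, and 13.3% showed opposite signs either way. The peak passed the filter only through the LPS group, so its signs are not independent of the filter. The part of read depth in this pattern was not tested; the unstimulated library of mouse 1 held 2 reads at this peak.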

How the results depend on the processing

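For LPS against unstimulated cells, 10.1% of all tested peaks passed with quantile normalization and 11.1% with the lowest 25% of peaks left out. With the libraries of the 2 groups alone 7.81% passed. The count of members past the threshold in this comparison was 1. It was 0 with quantile normalization, with the lowest 25% of peaks left out (the peak 19.5 kb upstream was then not tested) and with the libraries of the 2 groups alone, and 0 to 1 over the omission of single libraries. The peak itself passed in 14 of the 18 alternatives that tested it, with log2 differences of 0.54 to 1.58. For fenoterol + LPS against fenoterol the count of 0 became 1 by voom with no filter, through the peak 62.3 kb upstream. In that fit all 4 members were tested, and 20.4% of all peaks passed. For the average effect of LPS the count of 1 became 0 with quantile normalization, where 26.4% of all tested peaks passed. It was also 0 with the lowest 25% left out (24.9% of all tested peaks). The count became 3 by voom (26.7%), 3 by voom with the mouse as a block (27.1%) and 4 by voom with no filter (27.2%). It ran from 0 to 2 over single omissions, with 16.1% to 31.6% of all tested peaks. Without the unstimulated library of mouse 2, 0.412% of all tested peaks passed for the interaction and 2.77% for the average effect of fenoterol. With the mouse as a replicate block the LPS count stayed at 1 and no other call of limma-trend changed. For fenoterol against unstimulated cells, fenoterol + LPS against LPS, the interaction and the average effect of fenoterol the count was 0 under every alternative run, including voom; the interaction at the peak 19.5 kb upstream was -1.30 to -0.44 over 17 alternatives. Voom with no filter and voom with the mouse as a block were added after seeing the data. The 2 to 21 reads per library at that peak limit its precision.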
